A study of Mus musculus with 6 samples.

Results

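Trypsin-like serine proteases cut proteins after arginine or lysine, and most are made as inactive precursors that another protease, or a copy of the same enzyme, has to open. 10 mouse genes of this family were followed in the newborn inner ear, 10 of the 39179 genes in the count files and 10 of the 14723 genes tested. They were listed by name. Prss56, Prss35, Prss23 and Prss12 encode secreted family members and Prss8 a lipid-anchored one. Corin, Hpn, Tmprss2, Tmprss3 and St14 encode type II transmembrane proteases with the protease domain outside the cell. Only RNA was measured, so whether each product cuts proteins was not tested. Prss56 was chosen by its counts in these same libraries, so its values are given as a description and without a test. The other 9 were listed with earlier results of these libraries known.

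In epithelia these enzymes work in short cascades at the cell surface. Matriptase, the product of St14, and prostasin, the product of Prss8, activate each other's pathway and are held back by the Kunitz-type inhibitors encoded by Spint1 and Spint2, and prostasin is known for raising the activity of the epithelial sodium channel ENaC. In the inner ear the family is known through hearing loss: Tmprss3 is mutated in a recessive human deafness, and mice without hepsin, the product of Hpn, hear poorly.

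The groups compared were the sensory epithelium of the cochlea, the hearing organ, and that of the vestibule, the balance organ, each with 3 RNA-seq libraries. All mice were untreated wild-type C57Bl/6J newborns at P0 (postnatal day 0), with males and females pooled and at least 20 organs in a pool. The methods give 10 dissected mice, which yield no more than 20 cochleae and 20 vestibules. The 3 libraries of a tissue may thus share mice. The cochlear libraries were not alike in content, as the skeletal muscle markers below show. Whether the 3 libraries of a tissue share 1 RNA pool is not stated by the labels and was not tested. An n of 3 therefore counts libraries and not mice, and p-values measure the spread between libraries, which may be technical. Libraries held 24464483 to 33664793 counts on genes, so that 1 CPM (a gene's count scaled to the library's total on genes) stood for 24.5 to 33.7 counts. As a check of the tissue, all 8 hair cell markers and all 7 supporting cell markers on the lists passed the filter, and no marker of any cell type on the lists was at 0 in all libraries. The dissected tissue held other cells as well: the summed CPM of 6 mast cell markers was 4.86 to 8.83 in the cochlea and 90.8 to 112 in the vestibule, that of 5 macrophage markers 53.7 to 75.3 and 229 to 241, that of 5 melanocyte markers 31 to 60 and 272 to 336, and that of 6 skeletal muscle markers 278 in cochlea replicate 3 and 4.66 to 23.6 in the other libraries. In bulk tissue, fewer cells of a type and less RNA per cell cannot be told apart.

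The promoters of the members that differed most in each direction are shown to place these genes on the genome. The sequences are the 250 bases before the RefSeq start site (first listed start for Tmprss3) on GRCm38.p6, read 5′ to 3′ on the strand of the gene, and RefSeq promoters were matched for 8 of the 10 members. Capitals mark E-boxes, written CANNTG, the letters bound by basic helix-loop-helix factors such as ATOH1 of hair cells. They were searched on both strands.
Prss56 (chr1:87183064-87183313, plus strand): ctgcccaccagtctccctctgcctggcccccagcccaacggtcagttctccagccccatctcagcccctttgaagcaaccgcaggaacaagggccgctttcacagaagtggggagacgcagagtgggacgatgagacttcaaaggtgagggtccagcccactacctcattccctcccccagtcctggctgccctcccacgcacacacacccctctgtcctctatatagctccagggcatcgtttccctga
Prss12 (chr3:123446663-123446912, plus strand): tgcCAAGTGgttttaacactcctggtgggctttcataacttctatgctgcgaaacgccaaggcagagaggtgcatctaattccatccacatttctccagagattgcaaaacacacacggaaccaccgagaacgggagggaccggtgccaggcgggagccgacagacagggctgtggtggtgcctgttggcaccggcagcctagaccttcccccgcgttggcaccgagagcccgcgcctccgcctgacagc
Corin (chr5:72504541-72504790, minus strand): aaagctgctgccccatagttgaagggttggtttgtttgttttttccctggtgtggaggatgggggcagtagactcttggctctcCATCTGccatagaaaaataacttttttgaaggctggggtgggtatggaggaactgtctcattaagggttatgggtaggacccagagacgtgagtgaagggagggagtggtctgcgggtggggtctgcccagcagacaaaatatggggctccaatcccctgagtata
Prss35 (chr9:86743383-86743632, plus strand): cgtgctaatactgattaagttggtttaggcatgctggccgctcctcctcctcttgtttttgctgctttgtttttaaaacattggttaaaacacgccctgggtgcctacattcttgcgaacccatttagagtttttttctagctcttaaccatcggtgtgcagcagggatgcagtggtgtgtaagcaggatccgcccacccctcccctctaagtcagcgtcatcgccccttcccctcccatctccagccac
Tmprss3 (chr17:31198975-31199224, minus strand): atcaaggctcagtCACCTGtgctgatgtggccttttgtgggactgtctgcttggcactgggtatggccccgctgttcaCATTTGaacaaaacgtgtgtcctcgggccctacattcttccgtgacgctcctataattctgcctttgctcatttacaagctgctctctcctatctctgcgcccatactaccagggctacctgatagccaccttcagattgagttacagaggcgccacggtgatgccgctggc
Of these windows, Tmprss3 had 2 E-boxes, Prss12 and Corin 1 each, and Prss56 and Prss35 none. An E-box was present in 66.2% of the 32851 promoter windows of this length, so a match or its absence sets no member apart. The share of G and C was 61.2% for Prss56, 59.6% for Prss12, 53.6% for Tmprss3, 51.2% for Corin and 50.8% for Prss35, beside a median of 52.4% over all windows. None of the 5 windows held the exact letters TATAAA of the TATA box, which 12.4% of all windows held. Variants of these letters, such as the tatata near the end of the Prss56 window, were not searched for.

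Prss56, a secreted protease known from eye growth and as a marker of boundary cap cells at embryonic nerve roots, was close to absent in the cochlea and well expressed in the vestibule. The gene, ENSMUSG00000036480, spans 87183313 to 87188405 on chromosome 1 in GENCODE vM21, the GRCm38 annotation from which all gene positions here are taken. The 3 cochlear libraries held 3, 3 and 7 counts of it, against 621, 580 and 1416 counts in the vestibular ones. Scaled to library size, this is 0.123, 0.104 and 0.240 CPM against 18.4, 22.6 and 55.6 CPM. The groups did not overlap, and vestibule replicate 3 stood well above the other vestibular libraries. Pooled over libraries, the ratio of vestibule to cochlea was 196, with an exact 95% interval of 114 to 368 that covers counting error only and not the spread between libraries. The fitted log2 fold change, vestibule minus cochlea, was 7.55, the fourth largest towards the vestibule among the 14723 genes, and it was 6.84 without vestibule replicate 3. Prss56 passed the filter of 1 CPM in 3 libraries through the vestibule only.

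Among vestibular libraries Prss56 was also the most variable of the 10 genes, with an SD of 0.85 in log2 RPKM against 0.03 to 0.38 for the other 9. Schwann cell and boundary cap markers are given beside it because of its known site in nerve roots. The summed CPM of 6 Schwann cell markers was 470 to 605 in the cochlea and 1010 to 1300 in the vestibule, highest in vestibule replicate 3, and 3 of the 6 were called higher in the vestibule. For 4 boundary cap markers the sum was 137 to 167 CPM in the cochlea and 314, 285 and 286 CPM in vestibule replicates 1, 2 and 3, with 2 of the 4 called higher in the vestibule. Of these 2, Wif1 changed most, from 25.9 to 42.5 CPM in the cochlea to 142 to 163 CPM in the vestibule. Npr3 was the other (log2 fold change 0.88). Sema6a went towards the cochlea (-0.65, not called) and was lowest in vestibule replicate 3, at 27.8 CPM. Egr2, the classical boundary cap factor, was at 12.1, 9.17 and 5.03 CPM in the cochlea and 12.0, 10.8 and 11.7 CPM in the vestibule, where the groups overlapped. No marker of these lists was at 0, and their part in the Prss56 values was not tested.

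The genes whose log2 CPM followed Prss56 most closely over the 6 libraries were Pyy, Vsig2, Rbm24, Ext1 and Aqp4, with Pearson's r between 0.998 and 0.999. Pyy, which encodes peptide YY, was at 0, 0 and 0.0342 CPM in the cochlea and at 4.10, 5.22 and 11 CPM in the vestibule, and thus had its highest value in vestibule replicate 3 as Prss56 did. Vsig2 rose only from between 0.521 and 0.582 CPM to between 1.1 and 1.26 CPM, since r follows the order and spacing of the libraries and not the size of the difference. The 6 points share the tissue difference, and 125 of 14713 other genes had an r of at least 0.99.

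**Figure D1:**
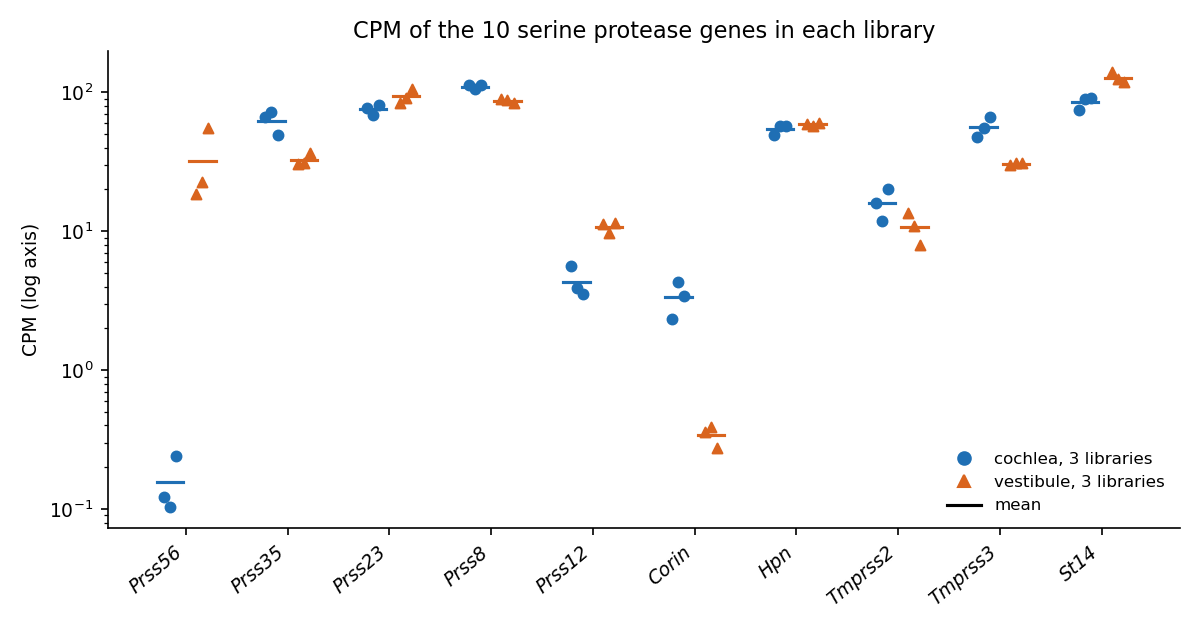
CPM on a log axis of the 10 serine protease genes in the 3 cochlear (circles) and 3 vestibular (triangles) libraries, with the mean of each tissue as a bar. Prss56 lies at 0.104 to 0.240 CPM in the cochlea and 18.4 to 55.6 CPM in the vestibule, Corin is split the other way, and the libraries overlap for Tmprss2.

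Of the 9 members other than Prss56, 4 were called higher in the cochlea (Corin, Prss35, Tmprss3 and Prss8) and 2 in the vestibule (Prss12 and St14), while Prss23, Hpn and Tmprss2 did not pass the test. A call is an adjusted p of at most 0.05 in edgeR's quasi-likelihood test over all 14723 genes, with Benjamini-Hochberg adjustment. Of all genes tested, 27.4% were called, 11.6% higher in the cochlea and 15.8% higher in the vestibule. In CPM the 3 libraries of a tissue did not overlap those of the other for 4 of these 9 higher in the cochlea and 4 higher in the vestibule, beside 14.3% and 27.5% of all genes (41.8% in either direction). All 10 members passed the filter, Prss56 and Corin through 1 tissue only, so that these 2 had to differ once they passed. Without Corin, 5 of the other 8 were called. The members were listed with results known, and these counts are a description.

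The other 3 secreted family members of the list went different ways. Prss35, on chromosome 9 from 86743649 to 86758443, is a secreted relative of Prss23. It was at 66.5, 71.7 and 49.7 CPM in the cochlea and 30.6, 31.0 and 36.7 CPM in the vestibule. Every cochlear library was above every vestibular one, and the log2 fold change was -1.05 (standard error 0.19, edgeR quasi-likelihood adjusted p = 0.00323), a cochlear level 2.08-fold that of the vestibule. Without each library in turn it stayed past the threshold, between -1.21 and -0.91.

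Prss12 encodes neurotrypsin, the protease that cleaves agrin at synapses, and lies on chromosome 3 from 123446913 to 123506597. Cochlear libraries were at 5.60, 3.92 and 3.52 CPM and vestibular ones at 11.2, 9.77 and 11.4 CPM, with no overlap. The log2 fold change was 1.20 (standard error 0.22, edgeR quasi-likelihood adjusted p = 0.00407), and with each library left out it stayed past the threshold, between 1.05 and 1.401. Its substrate agrin, a matrix proteoglycan, was far more abundant per length and did not pass the test: Agrn had mean levels of 6.51 (cochlea) and 6.62 (vestibule) log2 RPKM, and a log2 fold change of -0.00 with a 95% interval of -0.40 to 0.39.

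Prss23, on chromosome 7 from 89507783 to 89527187, was not called in either direction. Its libraries held 77.7, 69.2 and 80.4 CPM in the cochlea and 83.9, 90.8 and 106 CPM in the vestibule. These values do not overlap, but the log2 fold change was 0.19 with a 95% interval of -0.14 to 0.52 (edgeR quasi-likelihood adjusted p = 0.367). An antisense gene, Prss23os, shares 864 exonic bases with Prss23 on the other strand and had at most 3 counts in a library.

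Prss8 and St14, which form a known cascade, differed in opposite directions and by small amounts. Prss8, on chromosome 7 from 127925716 to 127930104, was at 113, 105 and 112 CPM in the cochlea and 89.2, 88.0 and 84.3 CPM in the vestibule. The cochlear libraries were all higher, by 1.37-fold on average in the fit (log2 fold change -0.45, standard error 0.11, edgeR quasi-likelihood adjusted p = 0.0144). The call was lost without vestibule replicate 2 (edgeR quasi-likelihood adjusted p = 0.0835), where the value was -0.45. Kat8 overlaps Prss8 on the other strand by 122 exonic bases.

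St14, on chromosome 9 from 31089402 to 31131853, was at 74.1, 89.1 and 91.1 CPM in the cochlea and 139, 124 and 118 CPM in the vestibule. Here the vestibular libraries were all higher, by 1.38-fold in the fit (log2 fold change 0.46, standard error 0.13, edgeR quasi-likelihood adjusted p = 0.0326). This call was the least stable of the 6: it was lost without cochlea replicate 1, where the value was 0.36, and without each of vestibule replicates 1, 2 and 3, with edgeR adjusted p between 0.0523 and 0.104 in these fits. Within a library, a difference of log2 RPKM does not depend on the scaling of libraries. That of St14 minus Prss8 was -1.91, -1.54 and -1.60 for the cochlear libraries, against -0.66, -0.81 and -0.83 for the vestibular ones, so the St14 level per length was 31.1% of that of Prss8 in the cochlea and 58.8% in the vestibule. The tissues did not overlap in this difference, which was taken after the values of both genes were known.

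**Figure D2:**
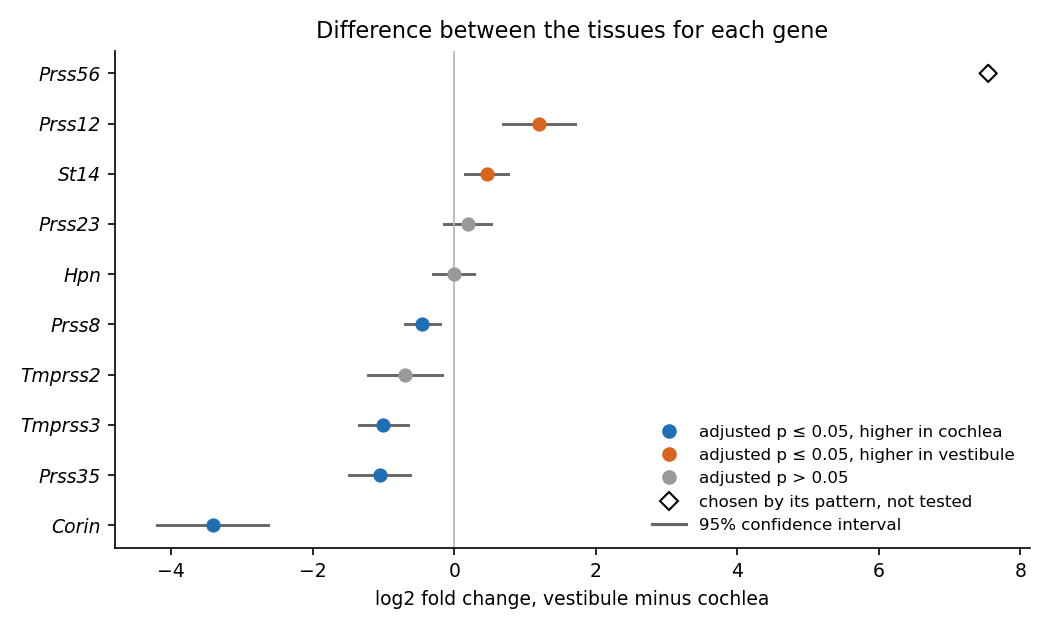
Log2 fold change, vestibule minus cochlea, of each of the 10 genes, with 95% confidence intervals from the fit over all genes for the 9 that were tested. Corin, Prss35, Tmprss3 and Prss8 lie to the left as called higher in the cochlea, Prss12 and St14 to the right, and Prss56 (open diamond, 7.55) is drawn without a test or an interval.

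The remaining transmembrane proteases were higher in the cochlea or did not pass the test. Tmprss3, the deafness gene, lies on chromosome 17 from 31179265 to 31198977. It was at 47.7, 55.0 and 66.9 CPM in the cochlea and 29.8, 31.0 and 31.2 CPM in the vestibule, where its libraries were nearly equal. The groups did not overlap, the log2 fold change was -1.001 (standard error 0.15, edgeR quasi-likelihood adjusted p = 0.00137), and the call held with any 1 library left out, with values between -1.12 and -0.89.

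Hair cell and supporting cell markers moved unequally beside it. Of the 8 hair cell markers, 5 were called higher in the vestibule and 1 in the cochlea, and their summed CPM was 623 to 800 in the cochlea and 1090 to 1330 in the vestibule. Of the 7 supporting cell markers, 4 were called higher in the cochlea and 1 was called higher in the vestibule, and their sum was 1700 to 2520 CPM in cochlear and 2660 to 3200 CPM in vestibular libraries. Otog, the most abundant of them, sets the direction of this sum: the other 6 markers summed to 1040 to 1330 CPM in the cochlea and 768 to 906 CPM in the vestibule. The 6 general epithelial markers summed to 1170 to 1310 CPM in the cochlea and 1640 to 1670 CPM in the vestibule, with 3 called higher in the vestibule (Krt8, Krt18 and Epcam) and 1, Cdh1, called higher in the cochlea (log2 fold change -0.94). The part of these cells in the protease values was not tested.

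Hpn, the hepsin gene on chromosome 7 from 31098725 to 31115290, had the fold change nearest to 0 of the 10. Its level was 49.2, 56.8 and 57.1 CPM in the cochlea and 58.8, 57.6 and 60.1 CPM in the vestibule. The log2 fold change was -0.01 with a 95% interval of -0.30 to 0.29 (edgeR quasi-likelihood adjusted p = 0.979), and its sign changed with the scaling, to 0.11 with library sizes alone, a scaling that also shifts the median of all genes to 0.13. Tmprss3 and Hpn thus took different places relative to each other: the log2 RPKM of Tmprss3 minus that of Hpn was 0.16, 0.16 and 0.43 for the cochlear libraries, against -0.77, -0.69 and -0.74 for the vestibular ones. This pair, too, was formed after the values were known and is not tested.

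Corin, the protease that matures atrial natriuretic peptide in the heart, was the member with the largest difference towards the cochlea. It lies on chromosome 5 from 72300025 to 72504473. Cochlear libraries held 57, 124 and 100 counts of it and vestibular ones 12, 10 and 7 counts, which is 2.33, 4.30 and 3.42 CPM against 0.356, 0.389 and 0.275 CPM. The libraries did not overlap. The gene passed the filter through the cochlea only, so its fitted log2 fold change of -3.42 (standard error 0.34) is given as a description, as are the values between -3.63 and -3.16 with 1 library left out. In that fit 85 genes had a larger change in that direction. Its substrate gene Nppa did not pass the filter, with 10, 11 and 20 counts in the cochlea and 17, 11 and 14 counts in the vestibule, while Npr1, the receptor gene of the peptide, was higher in the vestibule (log2 fold change 1.50, standard error 0.31, edgeR quasi-likelihood adjusted p = 0.00683). Nppa and Npr1 were picked for naming here after their values were seen.

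Tmprss2, best known for cutting the entry proteins of respiratory viruses, lies on chromosome 16 from 97564682 to 97611195. Cochlear libraries were at 16.1, 11.9 and 20.3 CPM and vestibular ones at 13.5, 10.9 and 7.97 CPM, and the groups overlapped. At a log2 fold change of -0.70 (95% interval -1.22 to -0.18) it missed the threshold (edgeR quasi-likelihood adjusted p = 0.0519). Other settings moved it to either side, from an edgeR adjusted p of 0.0257 with no filter to 0.141 with library sizes alone.

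Per length, Prss8 had the highest level of the 10 genes in both tissues. RPKM, the authors' count scaled to gene length and library size, allows genes to be compared within a tissue. In the cochlea Prss8 was at 5.89 ± 0.058 log2 RPKM (SD, n = 3), or a mean of 59.5 RPKM. Below it came Prss23 at 4.55, Tmprss3 at 4.28, Prss35 at 4.26, St14 at 4.21 and Hpn at 4.03 log2 RPKM, and each of these overlapped its neighbour in the order. Tmprss2 (2.32), Prss12 (0.71), Corin (-0.73) and Prss56 (-3.81) followed, and each of these was separated from its neighbours by the spread between libraries.

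In the vestibule Prss8 was again first, at 5.56 ± 0.043 log2 RPKM (SD, n = 3) or 47.2 RPKM, with no overlap with Prss23 at 4.85. Prss23 overlapped St14 at 4.79, which lay above all libraries of Hpn at 4.15. Prss56 moved from last in the cochlea to place 5, at 3.71 ± 0.85 log2 RPKM (SD, n = 3), overlapping Hpn above it and Tmprss3 (3.42) below it. Tmprss3 overlapped Prss35 (3.34), and Prss12 (2.05) overlapped Tmprss2 (1.75). Corin was last at -3.96, apart from all others.

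**Figure D3:**
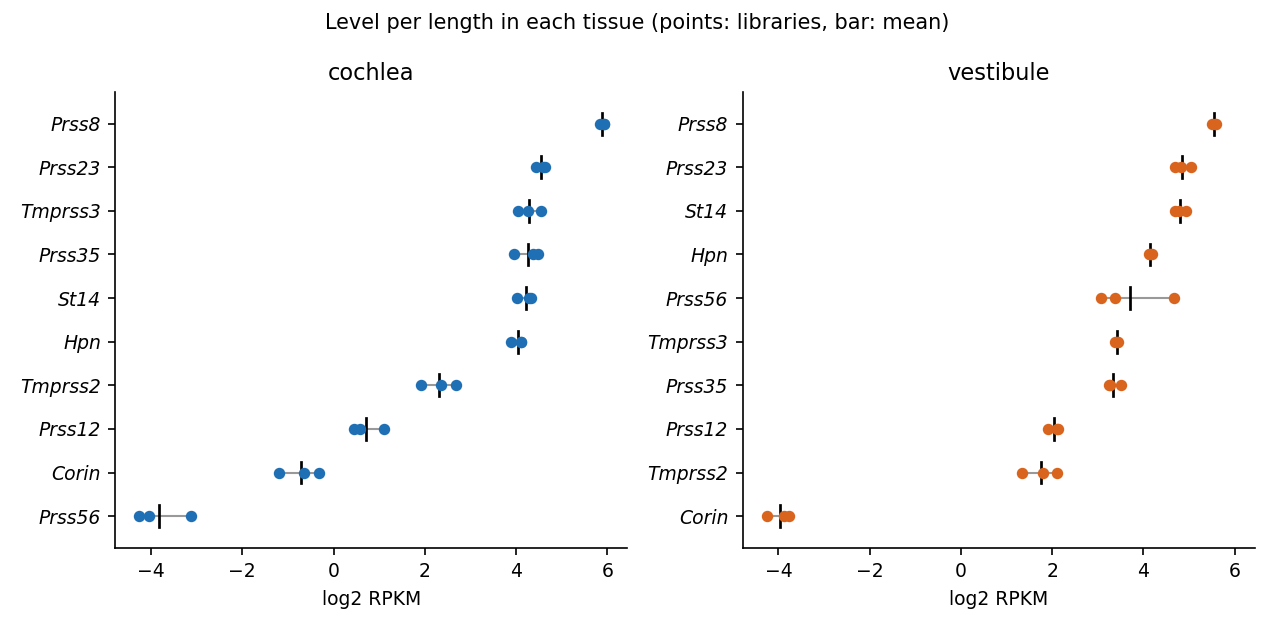
Log2 RPKM of the 10 genes in the cochlea (left) and the vestibule (right), sorted by the tissue mean (black bar), with a point for each of 3 libraries. Prss8 is highest in both tissues, and Prss56 stands last in the cochlea at -3.81 and in place 5 in the vestibule at 3.71, with the widest spread of its libraries.

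Other membrane proteases of the same class differed in both directions. Of 14 further type II transmembrane protease genes, 5 passed the filter and all 5 were called, 2 as higher in the cochlea and 3 as higher in the vestibule, beside 11.6% and 15.8% of all genes. Of these, Tmprss4 and Tmprss9 passed only through the tissue where they were high, and the other 3 were 1 cochlear and 2 vestibular calls. The median log2 fold change of the 5 was 0.85 beside 0.00 for all genes. This list was written with earlier results of these libraries known. Tmprss6, or matriptase-2, which restrains the iron hormone hepcidin in the liver, was at 139, 175 and 158 CPM in the cochlea and at a mean of 37.4 CPM in the vestibule, a log2 fold change of -2.19 (standard error 0.16, edgeR quasi-likelihood adjusted p = 2.3e-05). At a mean of 5.62 log2 RPKM in the cochlea it was near Prss8. Tmprss4 had 132, 342 and 138 counts in the cochlear libraries and 2, 4 and 2 counts in the vestibular ones. Its pooled ratio of cochlea to vestibule was 78.7, with a counting interval of 39.7 to 183, and it passed the filter through the cochlea only.

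Tmprss9, which carries several protease domains in a row, was the counterpart in the vestibule. It was at 0.409, 0.799 and 1.81 CPM in cochlear libraries and at 59.8, 41.9 and 60.7 CPM in vestibular ones, and 1 cochlear library reached 1 CPM, so that the vestibular libraries carried it past the filter. Its fitted log2 fold change of 5.60 (standard error 0.42) is therefore a description, and it was 6.31 without cochlea replicate 3. Tmprss7 rose by 1.28 in the vestibule on the log2 scale and Tmprss5, known as spinesin, by 0.85, both without overlap of the libraries. Tmprss5, Tmprss6 and Tmprss7 kept their calls with any 1 library left out.

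Among 32 further Prss genes, 6 passed the filter, with 2 called higher in the cochlea (11.6% of all genes were), 1 in the vestibule (15.8% of all genes) and 3 not called, and a median log2 fold change of -0.40. Prss3, a trypsinogen gene, had 37, 56 and 67 counts in the cochlea and none in the vestibule, which is at least 54.8-fold higher in the cochlea when 3 counts are allowed over the vestibular libraries together. It passed the filter through the cochlea only and so had to differ once it passed. It belongs to a family of near-identical trypsinogen genes among which reads can be split, so its counts are uncertain. Prss22 was lower in the vestibule (-0.94) and Prss33 higher (0.77), and each lost its call without some libraries, Prss22 without cochlea replicate 2 or vestibule replicates 1 or 2 and Prss33 without cochlea replicates 1 or 3 or vestibule replicates 1 or 2, while Prss36 (-0.42), Prss41 (-0.38) and Prss50 (0.58) did not pass the test. The number of calls in this list fell from 3 to 1 without vestibule replicate 1 and likewise without vestibule replicate 2.

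The list of plasminogen activators, kallikreins and Htra proteases held 21 genes, of which 7 passed the filter, 1 called higher in the cochlea and 2 higher in the vestibule, beside 11.6% and 15.8% of all genes. Plau and Htra4 passed only through the tissue where they were high, and of the other 5 genes 1 was called, in the vestibule. The median log2 fold change of the 7 was 0.35. Plau, the urokinase gene, was at 1.64, 0.903 and 0.992 CPM in the cochlea and 6.06, 6.15 and 6.79 CPM in the vestibule (a fitted log2 fold change of 2.32, standard error 0.27, given as a description). Plat, the gene of the tissue activator, was the most abundant of this list, at 175 to 185 CPM in the cochlea and 181 to 197 CPM in the vestibule, and its log2 fold change was -0.02 with a 95% interval of -0.29 to 0.26. The mitochondrial protease gene Htra2 rose by 0.86 in the vestibule on the log2 scale. The value of Htra4 was -1.34, also a description, and its call was lost without vestibule replicate 1. Klk8 (0.17), Htra1 (0.58) and Htra3 (0.35) did not pass the test.

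Of 13 inhibitors listed, 7 passed the filter, 1 was called higher in the cochlea (11.6% of all genes were), 2 were called higher in the vestibule (15.8% of all genes) and 4 were not called, with a median log2 fold change of -0.12. Spint1, whose product binds matriptase, was at 73.9, 86.6 and 89.9 CPM in the cochlea and 87.0, 85.9 and 78.0 CPM in the vestibule, with overlap and a log2 fold change of -0.12 (95% interval -0.41 to 0.17), whose sign changed to 0.0031 with library sizes alone. Spint2 was at 295, 331 and 288 CPM in the cochlea and 381, 433 and 482 CPM in the vestibule. Its libraries did not overlap, but with a log2 fold change of 0.39 it missed the threshold (edgeR quasi-likelihood adjusted p = 0.111). Serpine2 (-0.22) and Serpinf1 (-0.28) had overlapping libraries and were not called.

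Serpini1, the gene of neuroserpin, an inhibitor of the tissue plasminogen activator, was lower in the vestibule (log2 fold change -2.79, standard error 0.46, edgeR quasi-likelihood adjusted p = 0.00207). It was at 44.4, 33.7 and 11.7 CPM in the cochlea and 5.82, 3.39 and 4.87 CPM in the vestibule. The summed CPM of 6 neuronal markers, of which 3 were called higher in the cochlea, was 530, 452 and 163 for the cochlear libraries, against 316, 103 and 129 for the vestibular ones, so that cochlea replicate 3 was the lowest cochlear library in both, and their part in the Serpini1 values was not tested. Serping1 rose by 0.82 in the vestibule. Tfpi was called at 0.43 (edgeR quasi-likelihood adjusted p = 0.0384), a call lost with any 1 of the 6 libraries left out.

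**Figure D4:**
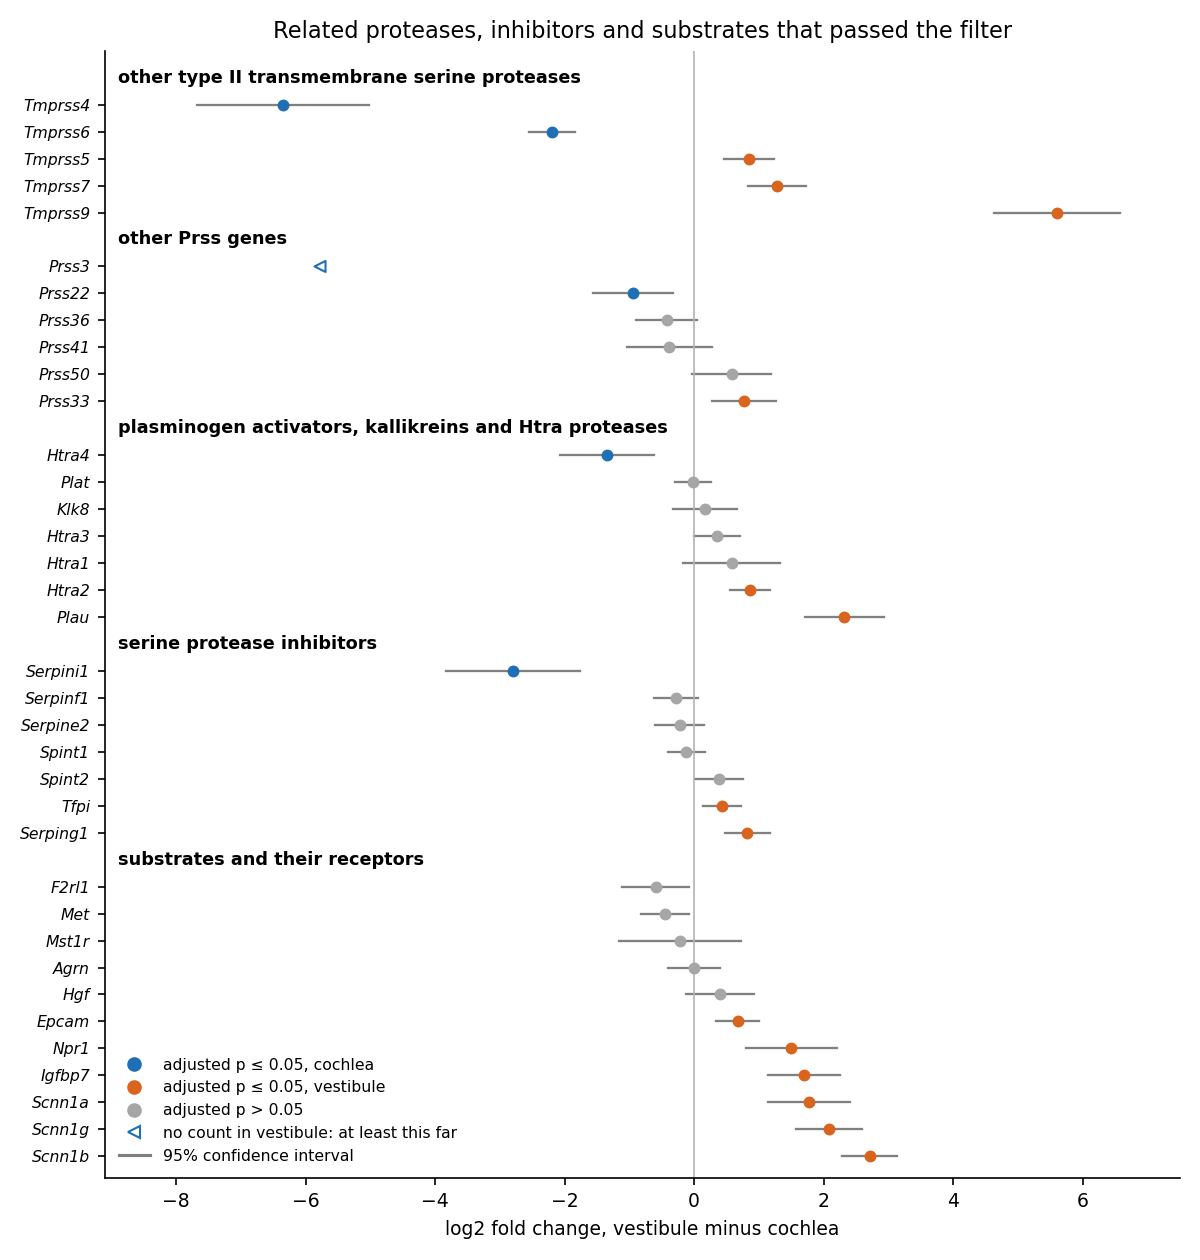
Log2 fold change, vestibule minus cochlea, with 95% confidence intervals, of the listed related genes that passed the filter, grouped by list and coloured by the call. All 5 further transmembrane proteases are coloured as called, the Kunitz inhibitors Spint1 and Spint2 are grey, and the open triangle for Prss3 marks a bound since it had no count in the vestibule.

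Substrates and their receptors included the sodium channel. Of the 15 genes reported for substrates and their receptors, 11 passed the filter, 6 were called higher in the vestibule (15.8% of all genes were) and 5 were not called, with a median log2 fold change of 0.67 beside 0.00 for all genes. All 3 subunit genes of ENaC, the channel that takes up sodium across tight epithelia, were among the 6, and the others were Igfbp7 (1.70, named after its value was seen), Npr1 and Epcam. Scnn1b was at 4.46, 3.65 and 5.89 CPM in the cochlea and 33.0, 35.7 and 30.9 CPM in the vestibule (log2 fold change 2.72, standard error 0.19, edgeR quasi-likelihood adjusted p = 2.0e-05).

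Scnn1a went from 4.33, 4.93 and 5.41 CPM in the cochlea to 11.7, 20.3 and 22.3 CPM in the vestibule, and Scnn1g from 1.47, 1.18 and 1.57 CPM to 7.43, 6.89 and 5.26 CPM. Their log2 fold changes were 1.78 and 2.09, with edgeR quasi-likelihood adjusted p of 0.00161 and 0.00021. The libraries of the tissues did not overlap for any subunit. Of 5 markers of ion-transporting cells (vestibular dark cells and the stria vascularis of the cochlea), 4 were called higher in the vestibule too. These were Bsnd (log2 fold change 3.83), Kcne1 (2.93), Kcnq1 (1.61) and Atp1b2 (1.26). The 5 markers summed to 618 to 777 CPM in the cochlea and 1020 to 1160 CPM in the vestibule. Slc12a2, which was not called, held much of this sum, at 449 to 595 CPM in the cochlea and 462 to 596 CPM in the vestibule. The part of these cells in the ENaC values was not tested. Prss8, Tmprss3 and St14 are members known to act on this channel, a set that may not be complete. Prss8 and Tmprss3 were higher in the cochlea and St14 in the vestibule, as given above. Only St14 of these 3 shared the direction of the channel genes, and its call was the least stable among the members.

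**Figure D5:**
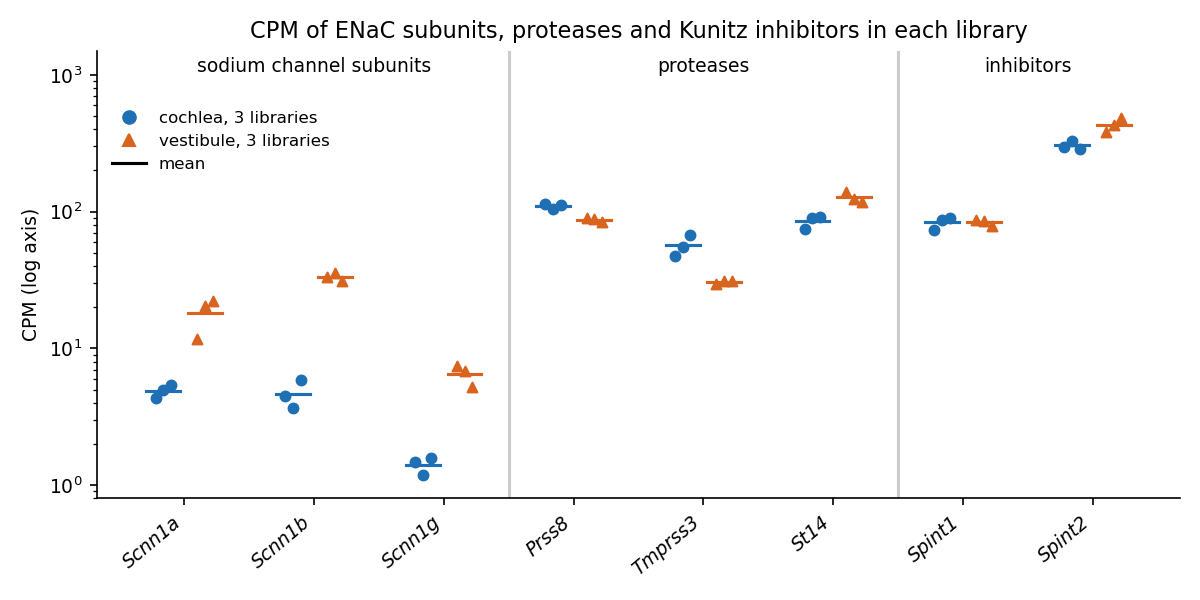
CPM on a log axis of the 3 ENaC subunit genes, of Prss8, Tmprss3 and St14, and of the inhibitor genes Spint1 and Spint2 in each cochlear (circles) and vestibular (triangles) library, with tissue means as bars. The subunits are higher in every vestibular library, Scnn1b at 30.9 to 35.7 CPM against 3.65 to 5.89 CPM, while Prss8 and Tmprss3 are lower there.

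Epcam encodes a surface protein of epithelia that matriptase cuts, and it was higher in the vestibule. It was at 406, 457 and 390 CPM in the cochlea and 731, 699 and 744 CPM in the vestibule (log2 fold change 0.67, standard error 0.15, edgeR quasi-likelihood adjusted p = 0.00874). The libraries of the tissues did not overlap, but the call was lost when the replicate number was added to the fit as a block.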

How the data were processed

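The authors sequenced poly(A) RNA libraries made with a stranded kit, aligned the reads to GRCm38 with TopHat2 2.1.0, used SAMtools 0.1.18, and deposited raw counts per Ensembl gene from HTSeq 0.5.4p5 (versions per the submitters' processing notes; the strand setting of the counting is not given in the sources used here). The deposited matrix holds log2 RPKM made by the authors with edgeR 3.4.2 for 14722 genes. The 5 summary lines of each count file, 18.5% to 20.6% of its counts, name no gene and were left out.

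The counts of genes reaching 1 CPM in 3 libraries were scaled by TMM and fitted with no block in edgeR 4.0.16 (R 4.3.3), whose quasi-likelihood p-values were adjusted by Benjamini-Hochberg and called at an FDR of 0.05. Intervals are at 95%. The printed CPM use library sizes without TMM. Standard errors were taken from the fold change and the F statistic. Alternatives used DESeq2 1.42.0, limma 3.58.1, other scalings and filters, and each library left out with the same genes tested. Log2 CPM for likeness used a prior count of 0.5. Plots were made in matplotlib 3.10.9 under Python 3.11.15. Members, lists and tests were chosen with earlier results of these data known.

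Genes were named by rule: all members, every gene past the filter of lists with 8 or fewer such genes, otherwise the 3 largest changes called in each direction and the 2 most abundant, and the 5 genes most like Prss56. All listed symbols were matched to GENCODE vM21, while the authors' counts rest on Ensembl release 74. Groups of 3 libraries are too small to test single outlying libraries. Of the substrate list, 1 gene is not reported here and is left out of the counts and the median of that list.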

Additional observations from a re-analysis of the deposited data

How the results depend on the processing

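Counts of calls were recomputed under 15 alternatives and fold changes of the 10 members under 14. The differences of log2 RPKM within a library have no alternative. Directions and calls of Prss35, Prss12 and Tmprss3 held in all of them, and Prss23 was not called in any. Hpn, near 0, changed sign to 0.11 with library sizes alone and to 0.011 with upper quartile scaling, and ran from -0.085 to 0.058 with each library left out; the cause was not tested. Tmprss2 passed the threshold at -0.72 with DESeq2's size factors in edgeR, -0.72 with DESeq2, -0.71 with no filter and -0.70 with a filter of 0.5 CPM, and ran from -0.85 to -0.51 with each library left out, past the threshold without cochlea replicate 2 (-0.85) and without vestibule replicate 1 (-0.85) and not in the other 4 of these fits (edgeR adjusted p = 0.109 to 0.14). It was -0.57 with library sizes alone (edgeR adjusted p = 0.141). St14 lost its call at 0.44 with no filter (edgeR adjusted p = 0.0514), which tests more genes, and ran from 0.36 to 0.53 with each library left out. Prss8 ran from -0.47 to -0.44, and Prss56 from 6.84 to 7.99. With no filter 1 member rather than 2 was called higher in the vestibule, and 5 rather than 3 genes of the plasminogen activator, kallikrein and Htra list were called. With each library left out, 995 to 1982 genes were called higher in the cochlea (1711 with all libraries; 995 without vestibule replicate 2), 1 to 2 members in the vestibule and 1 to 3 of the other Prss genes.

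The replicate numbers gave no sign of pairing: deviations of same-numbered libraries from their tissue means correlated at -0.18, -0.26 and -0.48 across genes. For differently numbered libraries the values ran from -0.271 to 0.407. Deviations from a shared mean depend on each other, and shared handling of same-numbered libraries was not tested. With the replicate number as a block, 1009 genes were called higher in the cochlea, 1 member in the vestibule and 1 of the other Prss genes, and Prss8 (-0.45) and St14 (0.47) were no longer called (edgeR adjusted p = 0.102 and 0.132). Library sizes alone, without TMM, moved the share of calls that were higher in the vestibule from 57.6% to 68.8%. With 24.5 to 33.7 counts at 1 CPM, depth limits what can be said of Prss56 in the cochlea and Corin in the vestibule.

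The 14 alternatives for fold changes were also run on the 36 listed genes outside the members that were tested, a step added after seeing the data. Of the 20 called, 15 were kept under all of them and 5 were lost under at least 1. Prss22, Prss33, Htra4, Tfpi and Epcam were lost with the replicate block, Tfpi also with no filter, and all but Epcam with at least 1 library left out. Of the 16 not called, 2 were gained: Spint2 with library sizes alone, and Met without cochlea replicate 2. Signs near 0 changed for Plat (0.10 with library sizes alone), Spint1 (0.0031, same setting), Agrn (0.12 in that setting and 0.014 with upper quartile scaling) and Mst1r; with each library left out, Plat ran from -0.075 to 0.040, Mst1r from -0.68 to 0.14 and Agrn from -0.12 to 0.091. The cause was not tested.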
